A study of Canis lupus familiaris with 58 samples.

Results

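Fine needle aspirates of canine B-cell lymphoma were compared between dogs with short and with long overall survival (OS). Short OS meant an OS time under 300 with an OS indicator of 1, and long OS meant an OS time of 600 or more with either indicator. By this rule 8 aspirates were short and 8 were long, so 16 of the 58 samples of the series entered the comparison, and all 15115 measured genes were tested in them. Each sample came from a different client-owned pet dog, sampled before treatment, and total RNA was hybridised to 1 Affymetrix canine array per dog. B-cell lymphoma had been identified by flow cytometry and/or immunohistochemistry, and the pathology diagnosis of every aspirate was labelled unknown. The unit of the times is not given in the labels.

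The 8 short-OS dogs had OS times of 36 to 294 (median 193), all with an indicator of 1, which was read as death. The 8 long-OS dogs had OS times of 673 to 1130 (median 997), of which 2 ended with an indicator of 1 and 6 with an indicator of 0. Progression-free survival (PFS) times ran from 26 to 261 in short-OS dogs and from 227 to 1130 in long-OS dogs. The earliest progression among long-OS dogs, at 227, was followed by survival to at least 1095. The antibody heavy chain variable gene (IGHV) was labelled static in 3 and ongoing in 5 dogs of each group (Fisher's exact p = 1.0). The other 3 aspirates had OS times of 344, 367 and 515 and belonged to neither group.

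**Figure D1:**
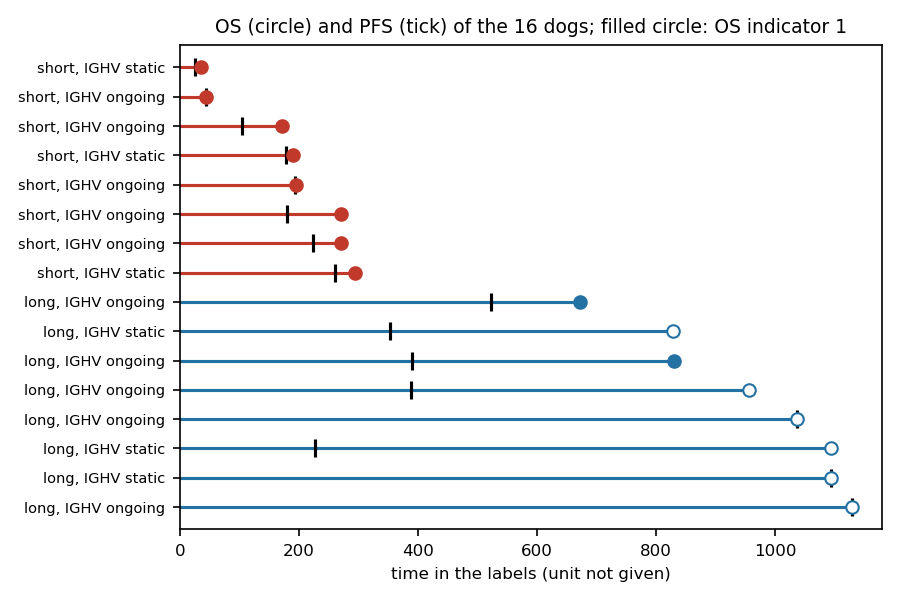
Survival labels of the 16 dogs, 1 line per dog, with time on the horizontal axis in the labels' unstated unit; circles mark OS (filled for an indicator of 1), ticks mark PFS, and short-OS dogs stand above long-OS dogs. The longest short OS time was 294 and the shortest long OS time 673, while PFS times of the groups overlapped between 227 and 261.

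B-cell lymphoma is a common blood cancer of dogs, and its usual form resembles human diffuse large B-cell lymphoma. A tumour sample of this disease holds malignant B cells together with T cells, macrophages and stroma, and in people both macrophage and T-cell genes have been linked to outcome. An aspirate draws loose cells through a needle and can also carry blood. In such bulk RNA, fewer cells of a type and less RNA per cell cannot be told apart.

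The labelled cell type was read first from its defining markers, on the log2 expression scale of the deposited values. MS4A1, the B-cell surface antigen CD20, had levels of 12.08 to 13.14 (median 12.82) in short-OS dogs and 10.90 to 13.40 (median 12.63) in long-OS dogs. CD79A, a signalling chain of the B-cell receptor, had levels of 7.73 to 9.81 in short-OS dogs and 7.47 to 9.88 in long-OS dogs. Both markers overlapped between the groups, and in every aspirate they were above the highest array median (array medians lay between 7.08 and 7.20). The mean correlation of an array with the other aspirates was 0.971 ± 0.0028 in short-OS dogs and 0.967 ± 0.011 in long-OS dogs (SD, n = 8 each; exact permutation p = 0.447). The 3' minus 5' difference of control probe sets, which grows as RNA breaks down, was 0.356 ± 0.208 in short-OS dogs and 0.571 ± 0.542 in long-OS dogs (exact permutation p = 0.378). One array stood apart on both measures, that of the long-OS dog with an OS time of 956, at a correlation of 0.942 and a 3' minus 5' difference of 1.86. The next highest difference among long-OS dogs was 0.539.

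No gene differed between short-OS and long-OS aspirates beyond the spread between dogs after adjustment. With limma and Benjamini-Hochberg adjustment over all genes, 0 of 15115 genes (0%) passed an adjusted p of 0.05, and the smallest adjusted p was 0.992. At an unadjusted p under 0.05 there were 369 genes (2.44%), of which 179 (1.18%) were higher and 190 (1.26%) lower in short-OS dogs. A uniform spread of p-values would put 755.75 genes there. An exact rank-sum test per gene also called 0 genes and had 443 at that unadjusted level. The difference of a typical gene was known to within 0.249 on the log2 scale (median half-width of the 95% confidence interval). Differences in either direction were larger than 1 for 23 genes, 15 of them higher in short-OS dogs.

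**Figure D2:**
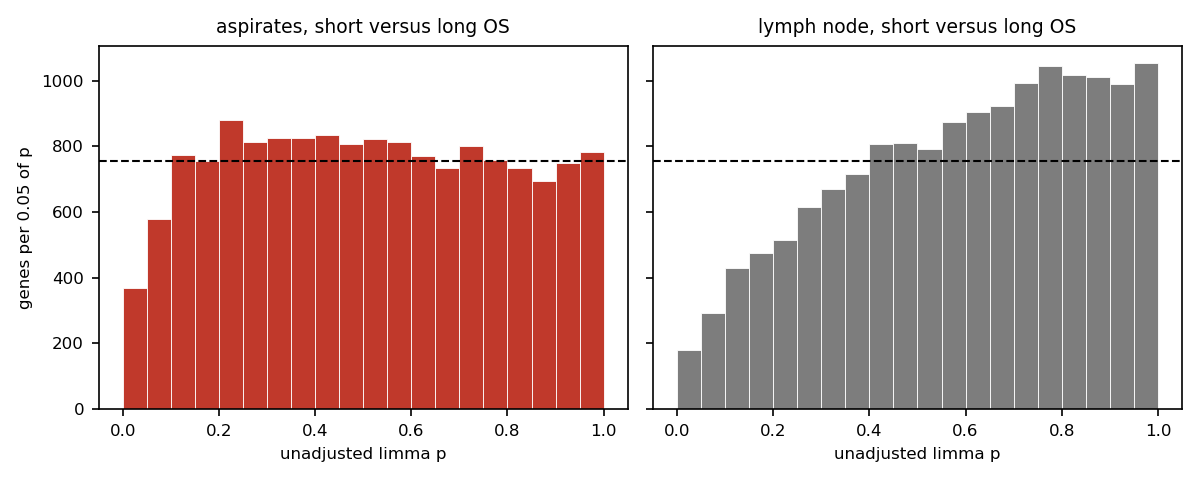
Number of genes (vertical axis) per 0.05 of the unadjusted limma p-value (horizontal axis) for short against long OS in aspirates (left) and in lymph node (right); the dashed line marks the 755.75 genes of a uniform spread. The lowest bin holds 369 genes in aspirates and 180 in lymph node, both below the line.

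The 10 genes with the smallest p among those higher in short-OS dogs are described next, and none passed the adjusted threshold. SLC50A1, a sugar transporter of the SWEET family, had levels of 8.45 to 9.30 (median 8.79) in short-OS dogs and 8.19 to 8.54 (median 8.39) in long-OS dogs. Its difference was 0.47 ± 0.10 (SE), a fold of 1.38, and 7 of 8 short-OS dogs were above every long-OS dog. TM9SF2, a transmembrane protein of endosomes and the Golgi, had levels of 12.21 to 12.91 (median 12.57) in short-OS dogs and 11.43 to 12.48 (median 11.85) in long-OS dogs. Here 5 of 8 short-OS dogs were above the highest long-OS dog, and the difference was 0.68 ± 0.15, a fold of 1.60. The other probe sets of TM9SF2 differed by 1.06 and 1.02, and those of SLC50A1 by 0.60 and 0.54.

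MSR1, the macrophage scavenger receptor, had the largest difference of the 10. Its levels were 4.66 to 7.62 (median 6.08) in short-OS dogs and 4.47 to 5.43 (median 4.76) in long-OS dogs. All but 1 short-OS dog were above every long-OS dog, and the short-OS levels were spread more widely (SD 0.90 against 0.33). The difference was 1.33 ± 0.31, a fold of 2.51, with a limma adjusted p of 0.992. The exception, at 4.66, was the dog with an OS time of 171. Without it the difference was 1.54 ± 0.26 and the limma adjusted p 0.356. That dog was picked by its MSR1 level, so a larger difference without it was fixed in advance. Leaving out each dog in turn gave differences of 1.12 to 1.54. The 3 aspirates with intermediate OS had MSR1 levels of 4.62, 4.73 and 4.93, within the long-OS range. The same was not so for every leading gene. Their TM9SF2 levels were 11.57, 11.86 and 13.25, the last above every short-OS dog. Their SLC50A1 levels were 7.69, 7.79 and 8.28, with 7.69 and 7.79 below every dog of both groups.

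GBP6, an interferon-inducible GTPase, was higher by 0.97 ± 0.31, with levels of 6.32 to 8.95 in short-OS dogs and 6.10 to 7.02 in long-OS dogs. DDRGK1, an adaptor of the protein modifier UFM1 at the endoplasmic reticulum, had levels of 8.78 to 9.10 in short-OS dogs and 7.98 to 8.75 in long-OS dogs. It was the single gene whose short-OS levels all lay above the long-OS levels (0.00662% of genes), and its second probe set differed by 0.32 against 0.37. The remaining 5 were RNF121, a ubiquitin ligase of the secretory pathway (0.38), RTN3, a reticulon that shapes the endoplasmic reticulum (0.34), SF3B6, a subunit of the spliceosome (0.38), MYDGF, a secreted growth factor (0.40), and C12H6orf89 (0.50). The second probe set of C12H6orf89 differed by -0.11, so its probe sets disagreed in direction.

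Among the 10 genes with the smallest p that were lower in short-OS dogs, GLCCI1, first described as a transcript induced by glucocorticoids, had the largest difference. Its levels were 6.27 to 7.15 (median 6.52) in short-OS dogs and 6.07 to 8.50 (median 7.85) in long-OS dogs. The lowest level of all belonged to the long-OS dog with an OS time of 956, whose array stood apart, and the other 7 long-OS dogs lay between 7.16 and 8.50. With all 16 dogs the difference was -1.10 ± 0.28, a fold of 0.467, with a limma adjusted p of 0.992. Without that dog it was -1.33 ± 0.19, the groups did not overlap, and GLCCI1 was the 1 gene that passed, at a limma adjusted p of 0.0459. That dog held the lowest GLCCI1 level, so a larger difference and no overlap without it were fixed in advance. The share of all genes without overlap in that fit was not counted. Among 20 alternatives and 16 fits leaving out 1 dog, only the fit without this dog, held in both, called a gene. With the 3' minus 5' difference as a term the limma adjusted p was 0.0919, and without the 2 arrays of lowest correlation, both from long-OS dogs, it was 0.0958. The aspirates with intermediate OS had levels of 7.37, 7.78 and 8.99, all above the highest short-OS dog. The other probe sets of GLCCI1 differed by -0.54 ± 0.10 and -0.06 ± 0.13, so the size of its difference depended on the probe set. In a fit of all probe sets with all 16 dogs, their unadjusted limma p was 3.9e-05 and 0.66. It was 0.0012 for the probe set used, and adjusted p for single probe sets is not given here.

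HAP1, a partner of huntingtin in vesicle transport, was the single gene with all short-OS levels below the long-OS levels (0.00662% of genes), at 4.91 to 5.17 in short-OS dogs and 5.18 to 5.49 in long-OS dogs. The difference was -0.23 ± 0.06 at a low level. As for DDRGK1, chance alone could give such a gene among 15115. Aspirates with intermediate OS had HAP1 levels of 5.03 and 5.14, within the short-OS range, and 5.27, within the long-OS range. FMNL3, a formin that builds actin filaments, had levels of 9.35 to 10.05 in short-OS dogs and 9.86 to 10.59 in long-OS dogs, a difference of -0.49 ± 0.13. MICAL1, an enzyme that takes actin filaments apart, differed by -0.62 ± 0.19 and TESPA1, a T-cell receptor signalling protein of thymocytes, by -0.45 ± 0.15. The RNA-binding gene RBM18 differed by -0.34. The last 4 genes had small differences: the homeobox gene POU6F1 (-0.18), the lipid receptor GPR119 (-0.22), the Wnt receptor FZD3 (-0.17) and the fibrinogen chain gene FGG (-0.18), whose other 3 probe sets differed by 0.07 or less.

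**Figure D3:**
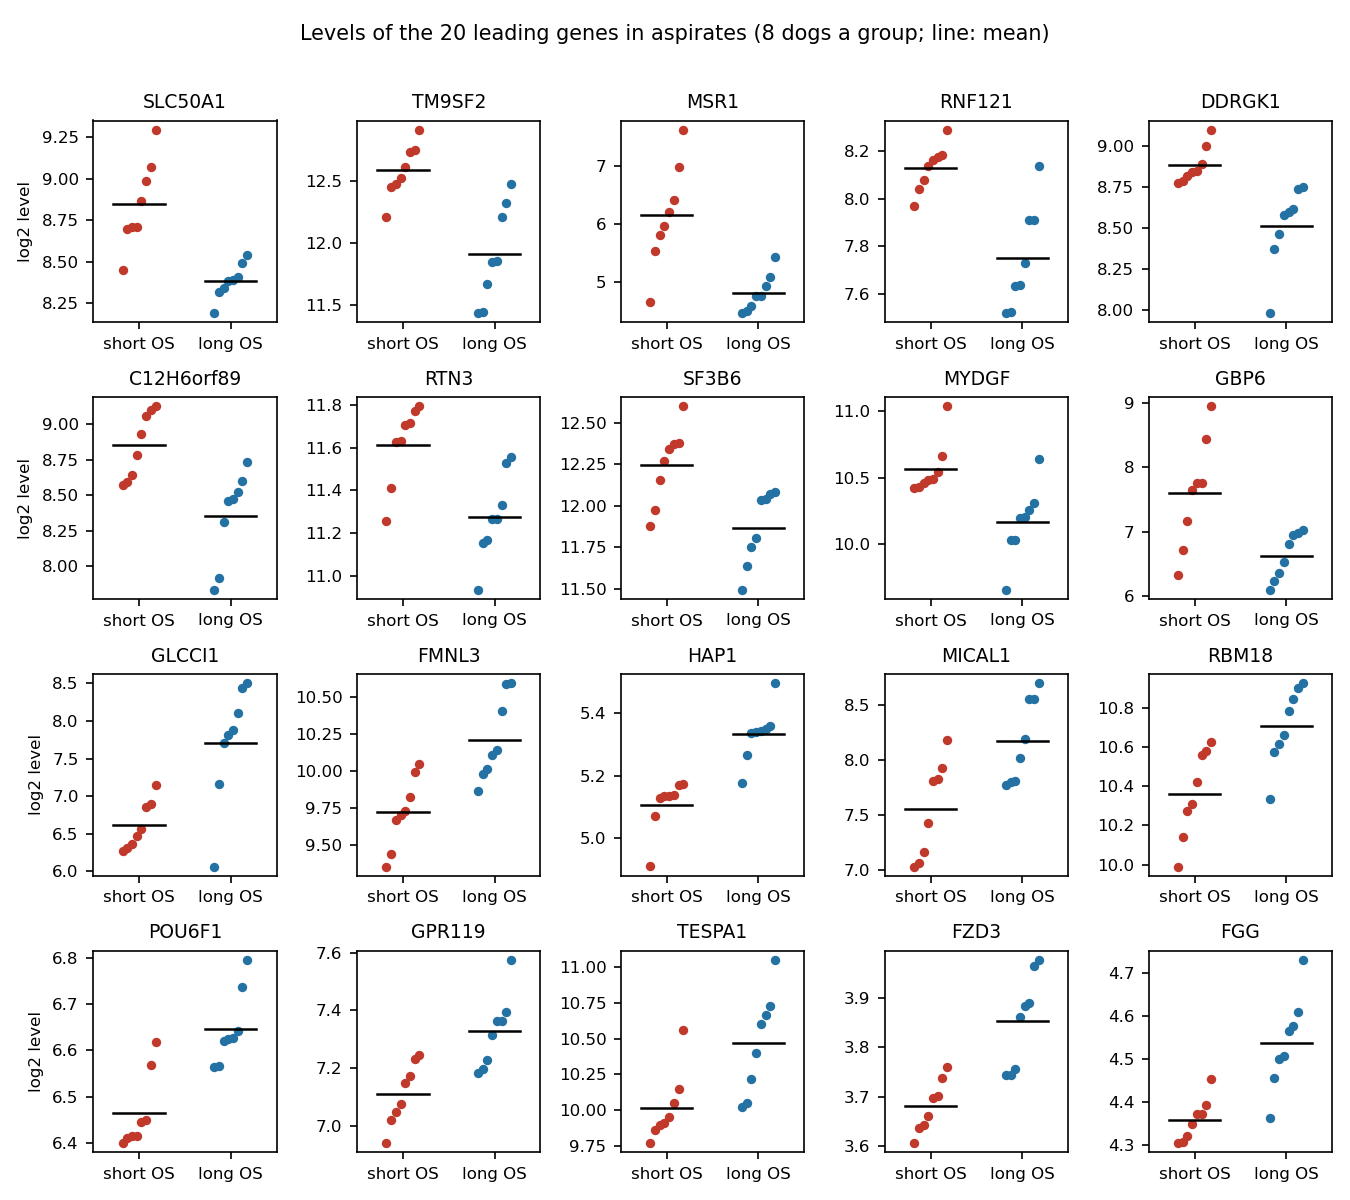
Log2 level (vertical axis, own scale per gene) of the 10 genes with the smallest p among higher genes (upper rows) and the 10 among lower genes (lower rows) in aspirates, 1 point per dog, short OS left of long OS, with the mean as a line. For GLCCI1 the long-OS point at 6.07 lies below all short-OS points, and the next long-OS dog is at 7.16.

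Cell types other than B cells were followed by lists of their marker genes, of which no member passed the adjusted threshold. Over all genes 43.5% were higher in short-OS dogs and the median difference was -0.019. Of 29 macrophage genes 19 were higher in short-OS dogs, with a median of 0.24, and 3 of them had an unadjusted limma p under 0.05. These were MSR1, the signalling adaptor TYROBP (0.59 ± 0.25) and the lysosomal protease CTSB (0.28 ± 0.13), the last named after its values were seen. The other 10 members were lower in short-OS dogs, by up to -0.22. CD163, a macrophage receptor also named after its values were seen, differed by -0.19 ± 0.10. The mean level of the list was 7.97 to 9.24 (median 8.59) in short-OS dogs and 7.99 to 8.85 (median 8.34) in long-OS dogs, so the groups overlapped. CD14, a monocyte receptor, had levels of 7.80 to 9.10 in short-OS dogs and 7.69 to 8.55 in long-OS dogs. Without the short-OS dog with an OS time of 271 (replicate 5) the macrophage median was 0.080. With that dog kept, it was 0.054 among dogs with ongoing and 0.31 among dogs with static IGHV, which was not tested. The part of macrophage content in the MSR1 difference was not tested.

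T-cell genes leaned the other way, with 19 of 24 lower in short-OS dogs and a median of -0.13. Members with an unadjusted limma p under 0.05 were UBASH3A, a phosphatase that damps T-cell receptor signals (-0.48 ± 0.16), and THEMIS, a regulator of T-cell selection (-0.27 ± 0.12). CD3E, a chain of the T-cell receptor complex, had levels of 9.29 to 9.86 in short-OS dogs and 9.28 to 10.54 in long-OS dogs. Without the long-OS dog with an OS time of 673 the T-cell median was -0.026. With that dog kept, it was -0.24 among dogs with ongoing and 0.086 among dogs with static IGHV, which was not tested. In a Cox score test of OS over all 19 aspirates, 13 of the 24 were higher with shorter survival, against 6105 of all 15115 genes. The same OS limits in lymph node, with diagnosis as a term, gave 13 higher in short-OS dogs (median 0.003). There 7827 of all genes were higher. The checkpoint and helper list had 12 of 22 members higher, and CD80, a ligand of CD28 and CTLA4, differed by 0.90 ± 0.42 with levels of 5.98 to 9.16 in short-OS dogs and 5.80 to 8.12 in long-OS dogs. FOXP3, the regulatory T-cell factor, differed by -0.14. Of 16 cytotoxic genes 10 were higher (median 0.12), with GZMA at 0.37 ± 0.33 and NCR1 at -0.11. The cytotoxic median was -0.013 among ongoing and 0.40 among static dogs, and this split was not tested.

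Stromal and blood cell markers varied widely between dogs. FN1, fibronectin, had levels of 6.97 to 10.06 (median 8.46) in short-OS dogs and 6.15 to 9.35 (median 7.07) in long-OS dogs, a difference of 1.11 ± 0.49, while its other 3 probe sets differed by -0.07, -0.05 and 0.08. COL1A1, a collagen chain, differed by 1.26 ± 0.69. The fibroblast list as a whole had 17 of 26 members higher and a median of 0.023. Endothelial genes had a median of 0.025, with PECAM1 at 0.71 ± 0.35 and CDH5 at -0.14. Red cell genes were lower in 15 of 17 cases (median -0.12), and ALAS2, the first enzyme of haem synthesis in red cells, had levels of 7.57 to 9.77 in short-OS dogs and 7.86 to 9.80 in long-OS dogs. EPB42, a red cell membrane protein, differed by -0.17 and the erythropoietin receptor gene EPOR by -0.12. Granulocyte genes were split 10 higher to 8 lower, with CPA3, a mast cell protease, at -0.39 and PGLYRP1 at 0.34; S100A8, a neutrophil protein, differed by 0.32 ± 0.75. Platelet genes were split evenly, at 6 of 12, with ITGB3 at -0.18 and PPBP at -0.14. Of 18 epithelial, fat and muscle genes 5 were higher, with the adipocyte hormone gene ADIPOQ at -0.29 and the muscle myosin gene MYH2 at -0.11.

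The B-cell programmes did not separate the groups at the level of single genes. Of 25 B-cell identity and receptor genes 19 were higher in short-OS dogs, with a median of 0.10, and without the long-OS dog whose array stood apart the median was -0.034. MALT1, which links the receptor to NF-kB, differed by -0.29 ± 0.15 and FCRLA, an intracellular Fc receptor-like protein, by 0.21. Germinal centre genes were lower in 14 of 20 cases (median -0.087). BCL6, the master repressor of the germinal centre, had levels of 8.21 to 9.48 (median 8.74) in short-OS dogs and 8.22 to 10.13 (median 9.40) in long-OS dogs, a difference of -0.37 ± 0.28. LMO2 differed by -0.21 ± 0.17 and MYBL1 by -0.17. Genes of activated B cells had a median of 0.029 (15 of 24 higher), with PIM1 at 0.20 and FUT8 at 0.51, and NF-kB genes a median of -0.036 (12 of 31 higher), with LTA at -0.29 and TNIP2 at -0.17. Plasma cell and secretory genes were higher in 16 of 20 cases (median 0.058), with the endoplasmic reticulum genes FKBP11 at 0.30 and SPCS3 at 0.19. Their median was -0.0018 without the 2 arrays of lowest correlation and 0.0088 without the short-OS dog of replicate 7. The activated B-cell outcome genes CCND2 and CCL3 differed by 0.08 ± 0.16 and 0.17 ± 0.30.

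Antigen presentation and interferon genes were next. MHC class II genes, which show peptides to helper T cells, were higher in 5 of 16 cases with a median of -0.049; their regulators RFXANK and RFX5 differed by 0.13 and -0.25. Interferon and class I genes were higher in 27 of 33 cases, with a median of 0.17, and 0 had an unadjusted limma p under 0.05. ISG15, a ubiquitin-like interferon product, had levels of 10.78 to 13.06 (median 12.38) in short-OS dogs and 9.20 to 13.05 (median 11.56) in long-OS dogs. USP18, which removes ISG15 from proteins, differed by 0.68 ± 0.35. The list median was -0.011 among the 10 dogs with ongoing and 0.42 among the 6 with static IGHV, and 0.040 without the short-OS dog with an OS time of 294. The difference between these medians was not tested. In the Cox score test of OS over all aspirates, 9 of the 33 were higher with shorter survival, against 6105 of all 15115 genes. In lymph node, with diagnosis as a term, 11 of the 33 were higher in short-OS dogs (median -0.096). There 7827 of all genes were higher. The lean of this list towards short-OS dogs was thus seen in neither of these readouts.

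Between these 2 groups of aspirates, growth and metabolism lists leaned towards short-OS dogs by small amounts. Mitosis genes were higher in 38 of 46 cases (median 0.14), with the mitotic kinase gene PBK at 0.45 ± 0.24 and the cytokinesis gene ANLN at 0.36, and replication genes in 31 of 44 (median 0.074), with GINS2 at 0.26 and RFC2 at 0.15. Without the long-OS dog with an OS time of 673 these medians were 0.030 and 0.010. Oxidative phosphorylation genes were higher in 49 of 55 cases (median 0.18). NDUFB11, a subunit of complex I, had levels of 11.31 to 11.67 in short-OS dogs and 10.64 to 11.45 in long-OS dogs, and COX5B, of complex IV, differed by 0.28 ± 0.13. Without the 2 arrays of lowest correlation the median of this list was 0.069. Of its 55 genes 38 were higher with shorter survival in the Cox score test. In lymph node, with diagnosis as a term, 12 were higher in short-OS dogs (median -0.045). Ribosomal protein genes had a median of 0.031, with RPL36 at 0.23 and RPL34 at 0.07. The list of MYC and ribosome biogenesis genes had a median of 0.006, with CDK4 at 0.27 and NOP58 at -0.14, and MYC itself had 9.94 to 11.67 in short-OS dogs and 10.00 to 11.95 in long-OS dogs. Glycolysis genes were higher in 20 of 32 cases, with the glucose transporter gene SLC2A3 at 0.25 and ALDOC at -0.21.

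**Figure D4:**
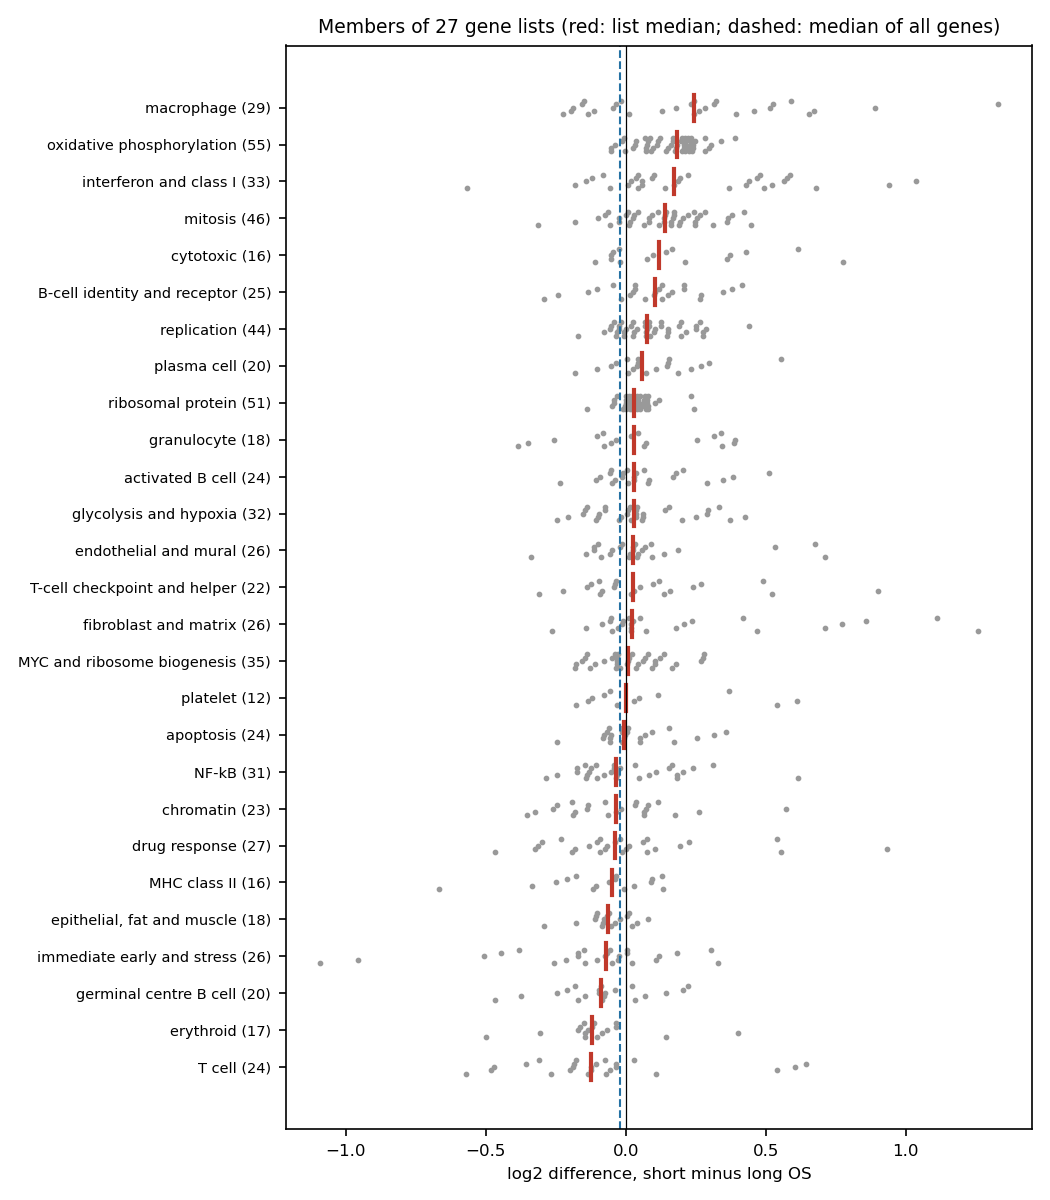
Log2 difference, short minus long OS, of each measured member (points) of 27 gene lists (number of members in brackets), with the list median in red and the median of all genes, -0.019, as a dashed line. The macrophage list has the highest median, 0.24, and the T-cell list the lowest, -0.13, and members of both lie on either side of 0.

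Genes of treatment response and cell death were close to the median of all genes. ABCB1, the drug efflux pump P-glycoprotein, had levels of 4.32 to 7.98 (median 5.35) in short-OS dogs and 4.37 to 7.50 (median 5.11) in long-OS dogs, with 1 high dog in each group. NR3C1, the glucocorticoid receptor, differed by -0.02 ± 0.14 and BCL2, the survival protein, by 0.006 ± 0.16. HSD11B1, which regenerates active glucocorticoid, differed by 0.93 ± 0.51 and TSC22D3, a glucocorticoid-induced gene, by -0.30 ± 0.20. List medians were -0.040 for 27 drug response and -0.005 for 24 apoptosis genes, with TNFSF10 at 0.32 and BAK1 at 0.36. The stress-response genes TP53INP1 and GADD45B differed by -0.17 and 0.29. Immediate early genes were lower in 18 of 26 cases. NR4A2, an orphan nuclear receptor, had levels of 5.33 to 6.55 in short-OS dogs and 6.04 to 8.87 in long-OS dogs, a difference of -0.96 ± 0.39, and FOSB differed by -0.22 ± 0.08. Of 23 chromatin genes 13 were lower, a share like that over all genes, of which 8547 of 15115 were lower. Among the lower ones were the DNA methyltransferase gene DNMT3A (-0.32 ± 0.11), the histone methyltransferase gene SETD2 (-0.35 ± 0.16) and the deacetylase gene HDAC1 (-0.24 ± 0.11). The other 10 chromatin genes were higher, by up to 0.57. KMO, an enzyme of tryptophan breakdown, differed by -0.14 ± 0.22.

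The same OS limits were applied to lymph node samples, which shared no dog with the aspirates: 20 with short OS (18 diffuse large B-cell and 2 marginal zone lymphomas) and 4 with long OS (2 of each). With diagnosis as a term, 0 of 15115 genes (0%) passed in limma. An unadjusted p under 0.05 was held by 180 genes (1.19%), of which 58 (0.384%) were higher and 122 (0.807%) lower in short-OS dogs. The rank-sum test called 0 there, with 253 at the unadjusted level. With diagnosis as a term, 7 of the 10 leading higher genes of aspirates were also higher in short-OS lymph node, where 7827 of all genes were. Of those 7, MSR1 and TM9SF2 also had higher plain means in short-OS lymph node. GBP6, RNF121, DDRGK1, RTN3 and SF3B6 had lower ones, for GBP6 7.00 in short-OS and 7.22 in long-OS dogs. Of the 10 leading lower genes 3 were also lower, where 7288 of all genes were. None of the 20 had an unadjusted limma p under 0.05 there. MSR1 differed by 0.71 ± 0.52 and GLCCI1 by -0.79 ± 0.55 in lymph node, both in the direction seen in aspirates. FN1 differed by 1.78 ± 0.72. The difference between specimens was also tested directly, and 0 genes (0%) passed in limma. At the unadjusted level there were 284 (1.88%), with the aspirate difference above that of lymph node in 122 (0.807%) and below it in 162 (1.07%). A Cox score test over all 19 aspirates, which uses every OS time, also called 0 genes (0%). It had 267 (1.77%) at the unadjusted level, of which 94 (0.622%) were higher and 173 (1.14%) lower with shorter survival.

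**Figure D5:**
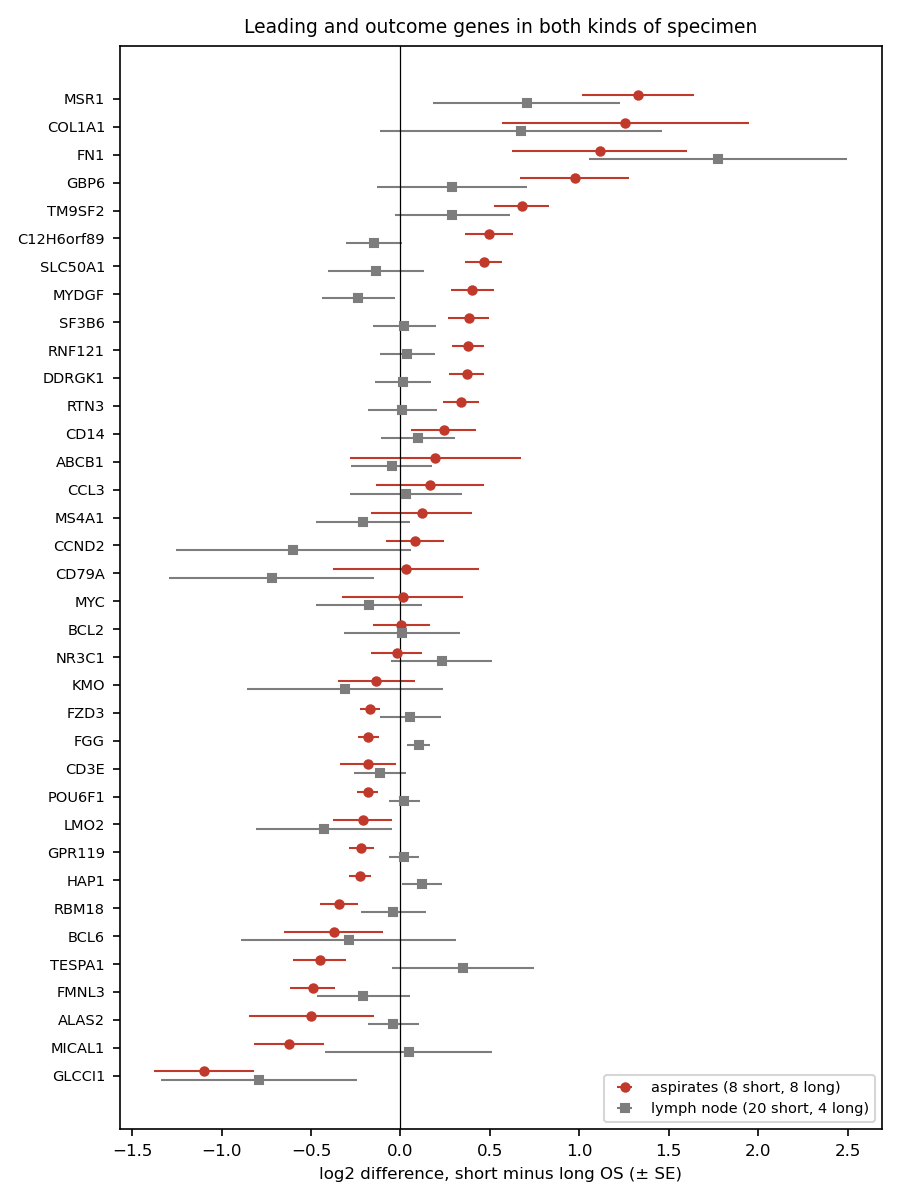
Log2 difference, short minus long OS (horizontal axis, ± SE), of the leading and preset genes in aspirates (8 short, 8 long; red) and in lymph node (20 short, 4 long; grey), ordered by the aspirate value. Lymph node differences had diagnosis as a term. MSR1 lies at 1.33 in aspirates and 0.71 in lymph node, and GLCCI1 at -1.10 and -0.79.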

How the data were processed

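The authors' deposited table gives 43035 probe sets as log2 values. Affymetrix Expression Console and RMA, a method of background correction, normalization across arrays and probe summary, made them, per the submitters' processing notes. Tool versions, the genome build and whether all arrays were normalized together are not given in the sources used here, and no coordinates or sequences are reported. RNA was extracted with Trizol and labelled with biotin, per the labels' protocols. Values ran from 2.82 to 15.11 with 0 missing. In the platform annotation 1 symbol stood beside 29254 probe sets, several beside 439 and none beside 13167. Controls made up the other 175. Each gene was read from its probe set of highest mean over all arrays. Of the 15115 genes so read, 8254 had another probe set. Near-repeat arrays were looked for, and the closest aspirate pair correlated at 0.9896.

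Short-OS and long-OS aspirates were compared with limma 3.58.1 in R 4.3.3 (default eBayes, two-sided, Benjamini-Hochberg adjustment over all genes, threshold 0.05), without covariates. Sample measures were compared by exact two-sided permutation over 12870 splits, adjusted over 3 measures (adjusted p = 0.447 for each). The limma steps were tested on simulated data. Named genes were the 10 of smallest p each way without LOC symbols, the 2 of smallest p in each of 28 gene lists and 18 preset genes; 1 preset gene and 1 list are not reported here, and MKI67 had no probe set named here. The groups, genes and lists were chosen with earlier results of these data known. Lists got no test. P-values measure the spread between dogs, and the number of arrays limits the precision. Alternatives covered probe set choice, samples, covariates, OS limits, IGHV status, test, normalization and a filter on low genes. Summaries used Python 3.11.15 and scipy 1.17.1, and figures matplotlib 3.10.9.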

Additional observations from a re-analysis of the deposited data

Results flagged for a closer look

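Values far from the rest of their group of 8 were found by Dixon's criterion, which chance alone meets in about 1 in 20 groups. It was applied to 89 named genes and 3 array measures in both groups, so several of the values below would be met by chance alone. The long-OS dog with an OS time of 956 was far from the other long-OS dogs on 7 measures. These were the mean correlation with other aspirates (0.94, next lowest 0.96), the 3' minus 5' difference (1.86, next highest 0.54), and the levels of MS4A1 (10.9, next 12.36), FUT8 (7.46, next 9.66), CDK4 (11.54, next 12.28), BAK1 (7.44, next 8.31) and MYH2 (4.27, next 3.91). The part of RNA quality in these levels was not tested.

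ABCB1 had 1 high dog in each group, at 7.98 in the short-OS dog with an OS time of 36 (next 5.95) and at 7.50 in the long-OS dog with an OS time of 673 (next 5.39). That short-OS dog also had the lowest KMO level, 10.64 (next 11.95). The short-OS dog with an OS time of 44 had the highest PGLYRP1, a neutrophil granule gene, at 8.17 (next 6.32), and the highest ALAS2, at 9.77 (next 8.47). The short-OS dog with an OS time of 171 had ISG15 at 10.78 (next 12.05), HAP1 at 4.91 (next 5.07) and MYBL1 at 7.44 (next 7.11). The short-OS dog with an OS time of 195 had COX5B at 13.94 (next 13.61) and EPOR at 8.06 (next 8.24). Of the 2 short-OS dogs with an OS time of 271, replicate 5 had MYDGF at 11.04 (next 10.66) and GADD45B at 9.49 (next 10.19), and replicate 3 had TP53INP1 at 6.98 (next 7.27). The long-OS dog with an OS time of 831 had TNFSF10 at 11.41 (next 12.13).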

How the results depend on the processing

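No paired analysis was possible because each dog has its own number and the groups share none. Across the alternatives, limma and the other tests called 0 genes higher, and 0 lower except GLCCI1 (1 gene lower without the array of highest 3' minus 5' difference, that of the long-OS dog with an OS time of 956). Leaving out each dog in turn gave 0 to 1 genes lower and 258 to 702 at an unadjusted p under 0.05, the most without the long-OS dog of replicate 3. Other alternatives gave 255 to 570, the most with all 58 samples in the fit. In lymph node leaving out each long-OS dog gave 0 to 1 genes lower (ATP6V1G2, -0.79, limma adjusted p 0.0185, without replicate 3) and 170 to 292 at an unadjusted p under 0.05, the most without replicate 1.

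Of 89 named genes, 76 kept their direction under every alternative other than leaving out single dogs. The sign turned in these cases, given as short minus long. With the 3' minus 5' difference as a term, BCL2 was -0.017, MYC -0.12, CD79A -0.13 and MS4A1 -0.13. With the erythroid mean as a term, BCL2 was -0.15, MYC -0.28, ABCB1 -0.12, CD79A -0.083 and MS4A1 -0.058. With array weights, BCL2 was -0.021, MYC -0.042 and MS4A1 -0.0081. After a repeated quantile normalization, BCL2 was -0.032 and MYC -0.037. With the mean of probe sets, RPL34 was -0.0082 and BCL2 -0.018, and with the most variable probe set FGG was 0.069, RPL34 -0.16 and KMO 0.061. With long OS of indicator 0, MYC was -0.037 and CD3E 0.0037. With short OS under 200, BCL2 was -0.039, NR3C1 0.066, CD79A -0.32 and MS4A1 -0.012. In ongoing dogs BCL2 was -0.24, ABCB1 -0.37, NR3C1 0.18, CD79A -0.27 and KMO 0.095, and in static dogs NCR1 was 0.031, MYC -0.16 and CD3E 4.03e-05. Group medians of PGLYRP1, BCL2 and MYC differed by -0.0085, -0.18 and -0.026. Cox z values were -0.078 for ISG15 and -0.070 for CD79A. Without the 2 arrays of lowest correlation NR3C1 was 0.055 and MS4A1 -0.048, and without that of highest 3' minus 5' MYC was -0.073, CD79A -0.068 and MS4A1 -0.12. Leaving out single dogs gave -0.0013 to 0.15 for CCND2, -0.082 to 0.084 for BCL2, -0.12 to 0.16 for MYC, -0.16 to 0.51 for ABCB1, -0.097 to 0.037 for NR3C1, -0.18 to 0.21 for CD79A, -0.12 to 0.23 for MS4A1 and -0.24 to 0.062 for KMO. The cause was not tested. Of 28 list medians 18 kept their sign when any 1 dog was left out.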

Other observations

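Some gene groups were chosen after their values were seen and are given as values only. In the family of TM9SF2, TM9SF4 differed by 0.37 ± 0.12, TM9SF1 by 0.23 ± 0.11 and TM9SF3 by 0.09 ± 0.09 between short-OS and long-OS aspirates. Of 8 genes known to be induced by glucocorticoids, 7 were lower in short-OS dogs, and 0 had an unadjusted limma p under 0.05. Over all 15115 genes 8547 were lower. Among these 8, DUSP1 differed by -0.51 ± 0.41, SGK1 by -0.50 ± 0.50, TSC22D3 by -0.30 ± 0.20 and PER1 by -0.26 ± 0.22. CD163 differed by -0.19 ± 0.10, ZBTB16 by -0.16 ± 0.11, KLF9 by -0.01 ± 0.18 and FKBP5 by 0.08 ± 0.22. The globin probe sets LOC476825 and LOC100855558 differed by -1.44 ± 1.69 and -0.92 ± 0.99, with SDs of 3.67 in short-OS and 3.72 in long-OS dogs for LOC476825.

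Several genes with differences above 1 lay outside the rule for named genes and were also chosen after their values were seen. TIMP1, an inhibitor of matrix proteases, had mean levels of 9.02 in short-OS dogs and 7.73 in long-OS dogs, a difference of 1.29 ± 0.54. HAS2, a hyaluronan synthase, had mean levels of 7.84 in short-OS dogs and 6.61 in long-OS dogs, a difference of 1.23 ± 0.41. PSPH, the last enzyme of serine synthesis, had mean levels of 9.39 in short-OS dogs and 10.84 in long-OS dogs, a difference of -1.45 ± 0.57. In lymph node, with diagnosis as a term, HAS2 differed by -0.26 and PSPH by 0.46, opposite in sign to aspirates, and TIMP1 by 0.58. The limma adjusted p in aspirates was 0.992 for each.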
